A study of Mus musculus with 9 samples.

Results

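Among 4 mammary tumors with intact Hspa1a and Hspa1b, the genes for the inducible heat shock protein Hsp72, 2 held the caseins Csn2 and Csn1s1 at 206-fold and 64.5-fold the level of the other 2, and the 5 tumors lacking Hsp72 all lay near the low end for these genes. The tumors were divided by 1 measured gene. Csn1s2a, a milk casein gene, was taken as CPM, its count scaled to the total over all gene entries, and libraries above 100 CPM were called casein-high. These were WT 1 at 500 CPM and WT 4 at 1116 CPM, and the casein-low libraries were WT 2 at 2.26 CPM and WT 3 at 6.83 CPM, so no library lay near the threshold. The comparison therefore holds 4 of the 9 libraries of the series, and the 5 KO libraries were placed along the difference afterwards. Because measured expression in the WT libraries selected the pairs, every difference between them is given as a description with no test.

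All tumors came from female C57BL/6 MUC1.Tg MMTV-PyMT (MMT) mice, which carry a human MUC1 transgene and the polyomavirus middle T oncogene under the MMTV promoter, and WT and KO tumors share both transgenes. WT tumors were Hspa1a/Hspa1b+/+ and were taken at 122, 132, 124 and 124 days for WT 1 to WT 4. KO tumors were Hspa1a/Hspa1b-/- and were taken at 122, 123, 120, 125 and 120 days for KO 1 to KO 5. The labels number the samples but name no animals or litters, so spread between libraries may be technical in part. Total RNA of dissociated tumors was depleted of ribosomal RNA and sequenced as paired ends, which gave 4410399 to 6221181 counts in genes per library. The series was designed to find transcripts that depend on murine Hsp72, and the question here is how far milk protein expression already divided the WT tumors.

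Milk proteins are made by alveolar luminal cells of the mammary gland. Prolactin acts on these cells through its receptor, the kinase Jak2 and the transcription factors Stat5a and Stat5b, with Elf5 as a partner that drives alveolar differentiation. A separate class of luminal cells senses estrogen and progesterone, uses Foxa1 and the estrogen receptor, and makes little milk protein itself. Caseins form the micelles of milk, and the whey proteins, with Wap and alpha-lactalbumin among them, stay in solution.

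Of the separating genes described below, 4 are caseins that lie together on chromosome 5 of GRCm38, from 87666208 for Csn1s1 to 87824426 for the end of Csn1s2b, with Csn2 and Csn1s2a between them. Promoter stretches are shown for the caseins that separate the pairs most, because these genes moved together, and for Wap, the whey protein gene on chromosome 11 that was high in the same libraries. They are RefSeq sequences of GRCm38.p6, written 5′ to 3′ on the gene's strand. Those of Csn2, Csn1s1 and Wap cover the 250 bases before the RefSeq start, and that of Csn1s2a is a 29-base site just after it. Capitals mark TTCNNNGAA, the 9-base palindrome that STAT factors bind, which reads the same on both strands.
Csn2, minus strand, chr5:87699426-87699675: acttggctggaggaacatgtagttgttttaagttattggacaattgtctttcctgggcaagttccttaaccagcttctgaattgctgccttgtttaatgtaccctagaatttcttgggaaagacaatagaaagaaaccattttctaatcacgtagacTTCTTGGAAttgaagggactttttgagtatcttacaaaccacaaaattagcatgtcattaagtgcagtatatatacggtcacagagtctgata
Csn1s1, plus strand, chr5:87665958-87666207: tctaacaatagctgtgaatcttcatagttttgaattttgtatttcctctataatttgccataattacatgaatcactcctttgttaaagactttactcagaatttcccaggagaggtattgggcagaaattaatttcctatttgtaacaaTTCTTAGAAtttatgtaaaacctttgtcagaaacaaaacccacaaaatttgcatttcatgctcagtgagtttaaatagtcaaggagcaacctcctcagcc
Wap, minus strand, chr11:6638650-6638899: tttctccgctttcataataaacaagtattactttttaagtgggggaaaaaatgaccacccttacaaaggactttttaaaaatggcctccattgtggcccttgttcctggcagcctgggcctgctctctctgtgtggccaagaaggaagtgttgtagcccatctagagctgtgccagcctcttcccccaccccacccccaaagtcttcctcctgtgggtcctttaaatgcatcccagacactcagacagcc
Csn1s2a, plus strand, chr5:87774460-87774488: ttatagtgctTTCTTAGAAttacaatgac

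The motif began at position -93 relative to the RefSeq start of Csn2 and at -100 for Csn1s1. In Csn1s2a it began at 21 after the RefSeq start, which is 97 bases before the start of the GENCODE gene. The Wap window holds no match to these letters. Across all 32851 RefSeq windows of 300 bases, 250 before and 50 after a start, 8.30% held the motif. Of the separating genes with an entry, 5 of 24 on the higher side and 3 of 21 on the lower side held it, beside 9.55% of all 27025 genes in the table. The motif and the window were chosen after the sequences and the values had been seen, and a match is a description of letters, not evidence of binding.

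Levels from here on are CPM scaled by TMM factors, which correct library size for composition, and differences are on log2(CPM + 1). Folds between the pairs are also on that scale and so understate differences of low genes. A gene was said to separate the pairs when both libraries of one pair exceeded both of the other by at least 1, a 2-fold gap. Of 14665 genes with enough counts, 27 separated with the casein-high pair higher (0.184%) and 34 with it lower (0.232%). On CPM without TMM factors the split was 21 higher and 55 lower, and the 21 were all among the 27. With no minimum gap, both casein-high libraries exceeded both casein-low libraries for 1844 genes (12.6%) and lay under both for 1960 (13.4%). The closest genes inside the limit were Tifa with a gap of 1.03 and Rgr with 1.06 on the higher side, and Ctse and Pck1 with 1.01 each on the lower side. Just outside were Lbp and St8sia4 with 0.99 each, and Nrg4 and Mab21l3 with 0.99 each.

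**Figure D1:**
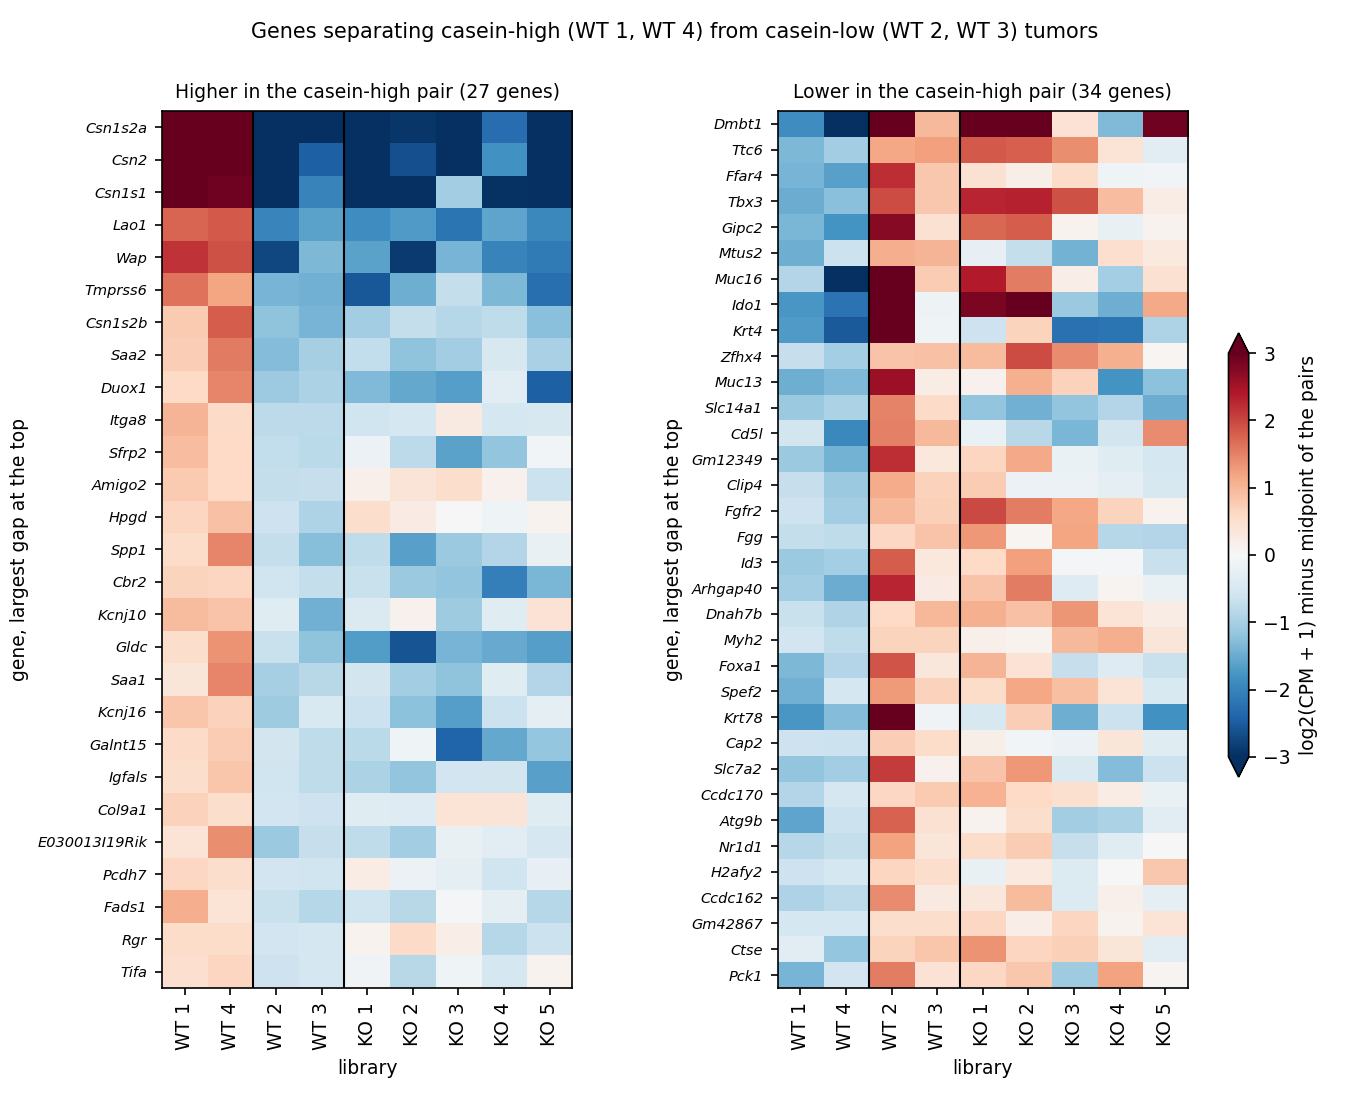
Level of each separating gene in each library as log2(CPM + 1) minus the midpoint of the 2 pair means (color scale, cut at 3 in either direction), with the 27 higher genes on the left and the 34 lower genes on the right. The WT columns are red or blue by the choice of genes. The KO columns are mostly blue on the left, while on the right KO 3, KO 4 and KO 5 are paler than KO 1 and KO 2.

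Several facts of the libraries moved with the pairs or stood apart. Hspa1b was at 28.7 to 81.1 CPM in WT and at 0 to 0.657 CPM in KO libraries, as labelled. The PyMT transgene was at 10167 and 10134 CPM in the casein-high pair, 7324 and 7295 CPM in the casein-low pair and 8575 to 15448 CPM in KO libraries. The human MUC1 transgene went the other way, at 234 and 793 CPM in the casein-high pair and 950 and 1132 CPM in the casein-low pair, with 404 to 965 CPM in KO libraries. The share of fragments that did not map was 12.2% in WT 1 and 27.1% in WT 4, the lowest and the highest of the WT libraries, with 21.1% in WT 2 and 15.2% in WT 3. The TMM factor of WT 4 was 0.885 and those of the other 8 libraries 0.979 to 1.07. Within the casein-low pair, WT 2 stood apart on the lower side: it exceeded WT 3 for 27 of the 34 genes, for 17 of them at least 2-fold. WT 2 was also the oldest tumor. The part of these measures in the differences was not tested. Leaving out 1 library loosens the rule, since a pair of 1 has no spread, and gave 92 to 418 higher and 59 to 273 lower genes. The fewest lower genes, 59, came without WT 2. All 27 and all 34 genes were among those found without each library. This overlap was fixed in advance, since dropping a library from a pair can only keep or widen a gap.

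Caseins and whey proteins made up the top of the higher side. Of 12 listed genes 11 were tested, 9 had both casein-high libraries above both casein-low libraries, and 6 separated with the full gap. The median difference of the 11 genes was 2.60, beside -0.01 over all genes tested. Since Csn1s2a is one of them and chose the pairs, this count describes how widely the choice extended and supports nothing by itself.

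Csn2, beta-casein, was at 1654 CPM in WT 1 and 3375 CPM in WT 4, and at 3.34 CPM in WT 2 and 29.2 CPM in WT 3. This was the largest fold between the pair means, 206-fold. In KO 1 to KO 5 Csn2 was at 1.97, 25.3, 16.6, 46.0 and 0.855 CPM. All KO libraries were thus below the casein-high pair, and KO 4 was above WT 3. Csn1s1, alpha-S1-casein, was at 2833 and 2522 CPM in WT 1 and WT 4 against 19.9 and 81.4 CPM in WT 2 and WT 3, a 64.5-fold difference. The KO values of Csn1s1 were 34.3, 19.2, 161, 41.3 and 18.0 CPM, with KO 3 highest and above both casein-low tumors. Csn1s2a itself was at 513 and 1267 CPM against 2.30 and 6.48 CPM on the TMM scale. In KO 1 to KO 5 it was at 2.36, 7.33, 5.42, 12.1 and 1.88 CPM, which rests on 11 to 67 counts per library. The KO levels of Csn1s2a thus spanned those of the casein-low pair and exceeded them in KO 2 and KO 4.

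Wap, whey acidic protein, was at 84.9 and 71.4 CPM in the casein-high pair and at 1.88 and 6.48 CPM in the casein-low pair, a 17.0-fold difference. In KO 1 to KO 5 it was at 5.32, 1.63, 6.24, 3.79 and 3.42 CPM, all within or under the casein-low pair. Lao1, an L-amino acid oxidase secreted into mouse milk, was at 107 and 115 CPM against 7.11 and 9.47 CPM, a 12.2-fold difference. The KO libraries were at 7.88, 8.96, 6.08, 9.75 and 7.35 CPM for Lao1, so the 7 low libraries lay within a narrow band. Csn1s2b, the least abundant casein here, was at 8.84 and 19.0 CPM against 1.46 and 1.16 CPM, and its KO levels ran from 1.37 to 2.44 CPM.

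The remaining milk proteins differed far less. Csn3, kappa-casein, which caps the micelle, was at 10351 and 3984 CPM in the casein-high pair and 2934 and 4635 CPM in the casein-low pair, so the pairs overlapped. KO 3 had the highest KO level of Csn3 at 7672 CPM, and the other KO libraries were at 2168 to 3737 CPM. Lalba, alpha-lactalbumin, the regulatory subunit of lactose synthase, was at 1283 and 612 CPM against 413 and 484 CPM. Its KO levels were 355, 230, 166, 263 and 178 CPM, all below all 4 WT libraries. Ltf, lactoferrin, was at 2171 and 1988 CPM against 1221 and 1873 CPM, and at 644 to 1186 CPM in KO libraries, again with no overlap between WT and KO. In the comparison of KO with WT described below, edgeR called neither Lalba nor Ltf, with an edgeR adjusted p of 0.256 for each. DESeq2 did call Lalba. How many of all genes show no such overlap was not counted. Trf, transferrin, was at 15723 and 7470 CPM against 4102 and 3656 CPM, with KO levels of 3478 to 5599 CPM. Abundant milk proteins were therefore present in the casein-low and KO tumors too, and it was Csn2, Csn1s1, Csn1s2a, Csn1s2b, Wap and Lao1 that separated.

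**Figure D2:**
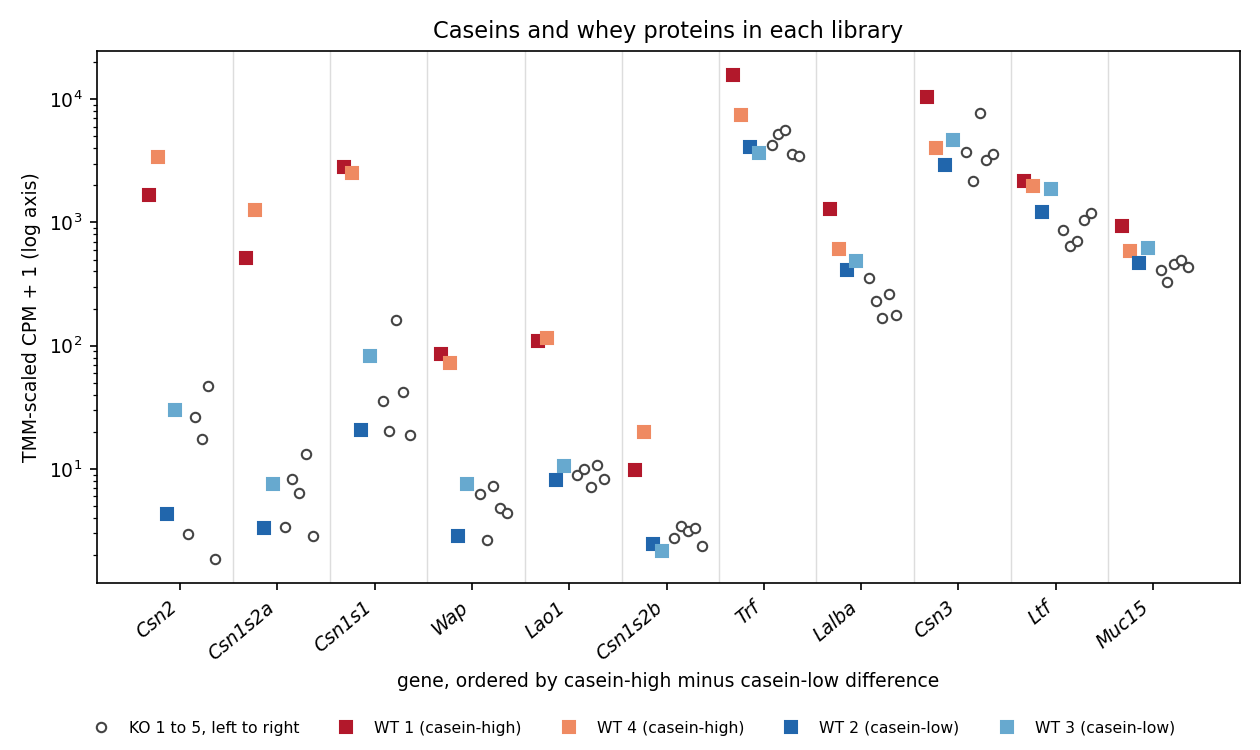
TMM-scaled CPM + 1 on a log axis for the 11 caseins and whey proteins tested, with 1 square per WT library (reds casein-high, blues casein-low) and 1 open circle per KO library in order 1 to 5. The gap between red and blue squares is widest for Csn2 at the left and closes by Csn3, Ltf and Muc15 at the right, and no KO circle of the first 6 genes reaches a red square.

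Other parts of the secretory program showed smaller differences. Of 20 tested genes of milk fat synthesis and the fat globule, 8 had both casein-high libraries above and 2 had both below, and none separated. Btn1a1, butyrophilin, the receptor-like protein of the globule membrane, was at 315 and 748 CPM against 177 and 73.1 CPM, and at 37.6 to 179 CPM in KO libraries. Lpl, lipoprotein lipase, was at 44.9 and 38.9 CPM against 18.6 and 23.8 CPM. Gpat4, a glycerol-phosphate acyltransferase, was at 144 and 138 CPM against 75.7 and 74.1 CPM. Fasn, fatty acid synthase, was at 379 and 444 CPM against 457 and 391 CPM, so the pairs overlapped, and was chosen here after its values were seen. Of 16 genes of secretory transport and lactose synthesis, 9 had both casein-high libraries above and 1 had both below, with none separated. Folr1, a folate receptor, was at 166 and 81.2 CPM against 45.4 and 52.5 CPM. Slc5a5, the iodide transporter, was high in 1 library only, at 196 CPM in WT 2 and at 14.5 to 20.1 CPM in the other 3 WT libraries.

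Genes of prolactin signalling did not follow the caseins at the RNA level. Of 16 tested, 3 had both casein-high libraries above and 3 both below, none separated, and the median difference was 0.14. Prlr, the prolactin receptor, was at 377 and 168 CPM in the casein-high pair and 684 and 321 CPM in the casein-low pair. Stat5a was at 98.8 and 162 CPM against 405 and 115 CPM, and Jak2 at 109 and 84.2 CPM against 207 and 117 CPM. WT 2 had the highest WT level of all 3 genes. Elf5, the alveolar transcription factor, was at 356 and 451 CPM against 292 and 289 CPM, and was chosen here after its values were seen. Wnt4, a Wnt ligand made by hormone-sensing cells under progesterone, was at 10.0 and 4.70 CPM against 41.4 and 12.6 CPM.

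The higher side also held genes that are not milk proteins. Spp1, osteopontin, a secreted phosphoprotein that is also found in milk, was at 993 and 1879 CPM against 416 and 280 CPM, and at 402, 219, 318, 370 and 585 CPM in KO 1 to KO 5. Saa2 and Saa1 are acute phase serum amyloids. Saa2 was at 149 and 263 CPM against 35.3 and 43.7 CPM, with KO levels of 37.8 to 62.8 CPM, and Saa1 at 190 and 408 CPM against 73.4 and 82.4 CPM, with KO levels of 63.0 to 113 CPM. They were the only separated members of the 13 tested genes of involution and acute phase, the program of the regressing gland, whose median difference was 0.33. Tmprss6, a membrane serine protease, was at 24.2 and 17.5 CPM against 2.09 and 1.99 CPM. Duox1, an oxidase that makes hydrogen peroxide, was at 17.0 and 31.8 CPM against 4.60 and 5.15 CPM. Both stayed below the casein-high pair in every KO library, with a highest KO level of 3.94 CPM for Tmprss6 and 8.48 CPM for Duox1.

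Of the remaining higher genes that the naming rule covers, some kept a high KO level. Itga8, an integrin subunit, was at 193 and 141 CPM against 54.8 and 54.3 CPM, and KO 3 reached 115 CPM while the other KO libraries were at 62.0 to 67.7 CPM. Itga8 shares 372 exon bases, 5.05% of its own, with E030013I19Rik, a separate antisense gene on the opposite strand that is also among the 27. No label or header says whether counting used strand, so these 2 genes cannot be fully told apart. Amigo2, an adhesion molecule, was at 10.0 and 8.73 CPM against 2.93 and 2.99 CPM, and 4 of the 5 KO libraries were nearer the casein-high pair. Hpgd, which inactivates prostaglandins, was at 4.42 and 5.37 CPM against 1.25 and 0.831 CPM, and again 4 KO libraries were nearer the casein-high pair. Sfrp2, a secreted Wnt modulator, was at 13.5 and 10.5 CPM against 3.55 and 3.32 CPM, with KO levels of 1.48 to 6.16 CPM. Cbr2, a carbonyl reductase, was at 39.1 and 38.3 CPM against 15.7 and 14.5 CPM, and the KO libraries were lower than the casein-low pair in 4 of 5, at 5.05 to 14.8 CPM.

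On the lower side, the genes of hormone-sensing luminal cells had the lowest median of the 26 gene lists. Of 12 tested genes, 5 had both casein-high libraries below both casein-low libraries and 2 of these, Tbx3 and Foxa1, had the full gap. The median difference of the list was -1.37. Tbx3, a T-box factor needed for mammary development, was at 1.16 and 1.57 CPM in the casein-high pair and 22.6 and 9.64 CPM in the casein-low pair. In KO 1 to KO 5 it was at 28.6, 29.5, 22.0, 10.7 and 6.16 CPM, so all 5 lay above both casein-high tumors and KO 1 and KO 2 exceeded WT 2. Foxa1, which opens chromatin for the estrogen receptor, was at 13.5 and 19.0 CPM against 134 and 45.5 CPM. Its KO levels were 73.3, 49.0, 21.7, 26.9 and 22.1 CPM, of which 2 exceeded WT 3 and 3 lay between the pairs. Ttc6, which lies beside Foxa1 on chromosome 12 (57564113 to 57737928, with Foxa1 at 57540628 to 57546916), was at 5.12 and 6.49 CPM against 33.6 and 35.7 CPM. Its KO levels reached 54.6 CPM, and all 5 lay above the casein-high pair.

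Several other members of the list were high in WT 2 alone among the WT tumors. Greb1, an estrogen target, was at 4.65 and 0.448 CPM in the casein-high pair, 32.4 CPM in WT 2 and 6.31 CPM in WT 3. Msx2, a homeobox factor, was at 25.1 CPM in WT 2 and at 0.224 to 1.50 CPM in the other 3. The receptor genes themselves, chosen here after their values were seen, did not separate the pairs either. Pgr, the progesterone receptor, was at 396 CPM in WT 2 but at 6.81 CPM in WT 3, beside 22.1 and 6.27 CPM in WT 1 and WT 4. In KO 1 to KO 5 Pgr was at 95.3, 209, 25.0, 13.2 and 38.0 CPM. Esr1, the estrogen receptor, was at 77.1 CPM in WT 2, 21.3 CPM in WT 3, and 15.3 and 23.3 CPM in WT 1 and WT 4. A high progesterone receptor level was thus a property of WT 2 among the WT tumors, not of the casein-low pair. In bulk tumors, fewer cells of a type and less RNA per cell cannot be told apart.

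**Figure D3:**
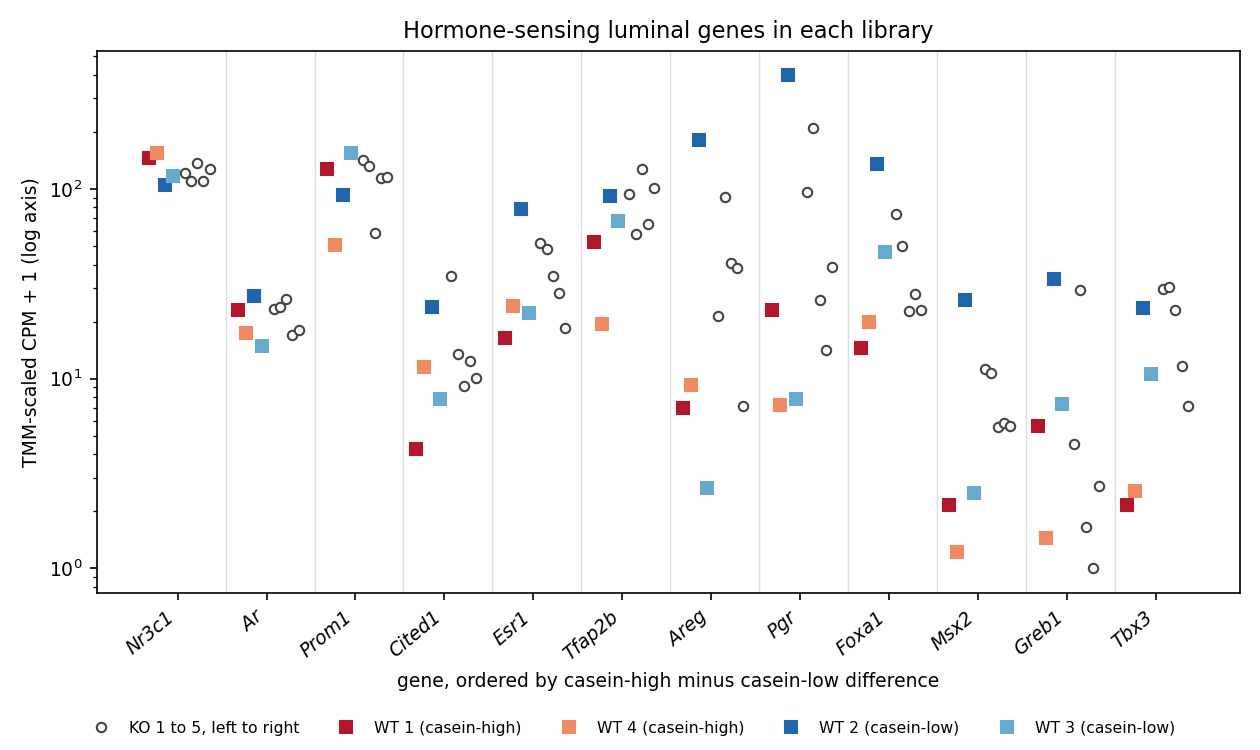
TMM-scaled CPM + 1 on a log axis for the 12 hormone-sensing luminal genes tested, with 1 square per WT library (reds casein-high, blues casein-low) and 1 open circle per KO library in order 1 to 5. WT 2 (dark blue) is the highest WT library from Areg to Tbx3, while WT 3 (light blue) lies above both red squares by the 2-fold gap only for Foxa1 and Tbx3 among these.

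Among the lower genes with the widest gap, Dmbt1, Muc16, Ido1 and Krt4 had WT 2 far above WT 3. Dmbt1, a scavenger glycoprotein of mucosal surfaces, was at 1.16 CPM in WT 1 and had 0 counts in WT 4, against 115 CPM in WT 2 and 14.6 CPM in WT 3. The 0 counts allow up to 0.592 CPM before TMM scaling. It spread widely among KO libraries, at 352, 207, 9.69, 2.17 and 58.5 CPM. Muc16, a membrane mucin, was at 3.72 and 0 CPM against 80.3 and 13.6 CPM, and at 44.3, 24.0, 8.87, 3.25 and 10.9 CPM in KO 1 to KO 5. Ido1, which breaks down tryptophan, was at 0.698 and 0.224 CPM against 99.1 and 4.15 CPM, with KO levels of 1.08 to 61.6 CPM. For all 3 genes KO 4 was lowest, and the highest was KO 1 for Dmbt1 and Muc16 and KO 2 for Ido1. Krt4, a keratin of stratified epithelia, was at 143 CPM in WT 2 and 5.48 CPM in WT 3 against 1.16 and 0.224 CPM, but only at 0.493 to 10.1 CPM in KO libraries. Of the 11 luminal keratin and adhesion genes, 5 had both casein-high libraries below and 1 had both above, none separated, and the median difference was -0.04. The keratins were among the 5, with Krt19 at 280 and 197 CPM against 1651 and 380 CPM and Krt7 at 96.1 and 99.4 CPM against 569 and 191 CPM. Epcam, an epithelial adhesion molecule chosen here after its values were seen, was the 1 above, at 1471 and 854 CPM against 779 and 775 CPM.

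Of the other lower genes described here, Fgfr2, Zfhx4 and Clip4 had closer levels in WT 2 and WT 3, while Ffar4 and Slc14a1 had WT 2 well above WT 3. Fgfr2, a receptor for fibroblast growth factors that supports luminal epithelium, was at 28.6 and 21.3 CPM against 88.6 and 73.9 CPM. Its KO levels of 181, 133, 102, 71.7 and 48.2 CPM were all above the casein-high pair. Zfhx4, a zinc finger homeobox gene, was at 1.63 and 1.12 CPM against 6.69 and 6.81 CPM, and at 3.42 to 15.5 CPM in KO libraries, with all 5 nearer the casein-low pair. Clip4 was at 10.9 and 7.83 CPM against 40.8 and 30.2 CPM, and 4 of the 5 KO libraries were nearer the casein-high pair, at 12.8 to 16.1 CPM. Ffar4, a receptor for long-chain fatty acids, was at 0.698 and 0.448 CPM against 19.9 and 6.81 CPM, with KO levels of 3.07 to 5.58 CPM, between the pairs in all 5. Slc14a1, a urea transporter, was at 2.33 and 2.69 CPM against 19.0 and 9.64 CPM. In KO libraries it was at 1.54 to 2.89 CPM, at the level of the casein-high tumors, so for this gene the KO libraries lay at the opposite end from where the caseins put them.

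Markers of other cell types were compared in the same way, since the dissociated tumors hold more than epithelium. Of 12 macrophage markers 10 had both casein-high libraries above both casein-low ones, and their summed level was 614 and 656 CPM against 467 and 407 CPM, and 182 to 632 CPM in KO libraries. Of 12 endothelial markers 6 had both above, and the sum was 227 CPM in WT 1 but 108 CPM in WT 4, close to the 97.6 and 99.0 CPM of the casein-low pair. Csf1r, the receptor that maintains macrophages, was at 75.1 and 81.2 CPM against 52.7 and 38.9 CPM, and Pecam1, an endothelial adhesion molecule, was at 25.6 and 8.28 CPM against 3.97 and 5.98 CPM. Skeletal muscle markers went the other way in 9 of 11, with sums of 237 and 241 CPM against 441 and 398 CPM, and 373 to 710 CPM in KO libraries. Adipocyte markers were below in 5 of 6, with sums of 29.8 and 53.5 CPM against 101 and 64.1 CPM, and 42.1 to 75.8 CPM in KO libraries. Basal and myoepithelial genes had 1 above and 2 below of 11, and their sum was 444 and 657 CPM against 681 and 502 CPM. Few lymphocyte, neutrophil and skin markers were abundant enough to test, with 3 of 11, 2 of 8 and 2 of 8 tested for T and NK cells, neutrophils and skin keratinocytes. The part of these cell types in the differences of the casein-high pair was not tested.

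Several programs held no gene that separated the pairs with the full gap. Proliferation genes had 0 of 16 with both casein-high libraries on one side, and their sum was 813 CPM in WT 1 and 763 CPM in WT 3 against 391 CPM in WT 4 and 380 CPM in WT 2. Of 16 genes of the unfolded protein response and secretion, 4 had both casein-high libraries above (25%, beside 12.6% of all genes tested) and 1 both below. None separated, and the median difference was 0.45. Their sum was 8394 CPM in WT 1 but 4336 CPM in WT 4, between the 3945 and 4596 CPM of WT 2 and WT 3. Calr, calreticulin, was among the 4 above, at 1418 CPM in WT 1, 751 CPM in WT 4, and 645 and 723 CPM in the casein-low pair. The collagen list, which bears on the extracellular matrix named in the title of the series, had 4 of 15 above (26.7%) and 1 below. Its sums were 2081 and 2317 CPM against 2070 and 1920 CPM. The other matrix list, of glycoproteins and proteoglycans, had 7 of 16 above (43.8%, beside 12.6% of all genes tested) and 0 below, with a median difference of 0.61. Its sum was 2522 CPM in WT 1 but 1412 CPM in WT 4, between the 1346 and 1605 CPM of WT 2 and WT 3. All 5 KO sums of the collagens, 745 to 1638 CPM, were below all 4 WT sums, and edgeR called 0 of the 15 between KO and WT after adjustment. The same held for the milk fat list, with KO sums of 4344 to 5102 CPM and WT sums of 5596 to 7198 CPM. KO sums of the other matrix list, 1031 to 1631 CPM, overlapped those of WT. How many gene lists or genes show no such overlap was not counted, so nothing is read from it.

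**Figure D4:**
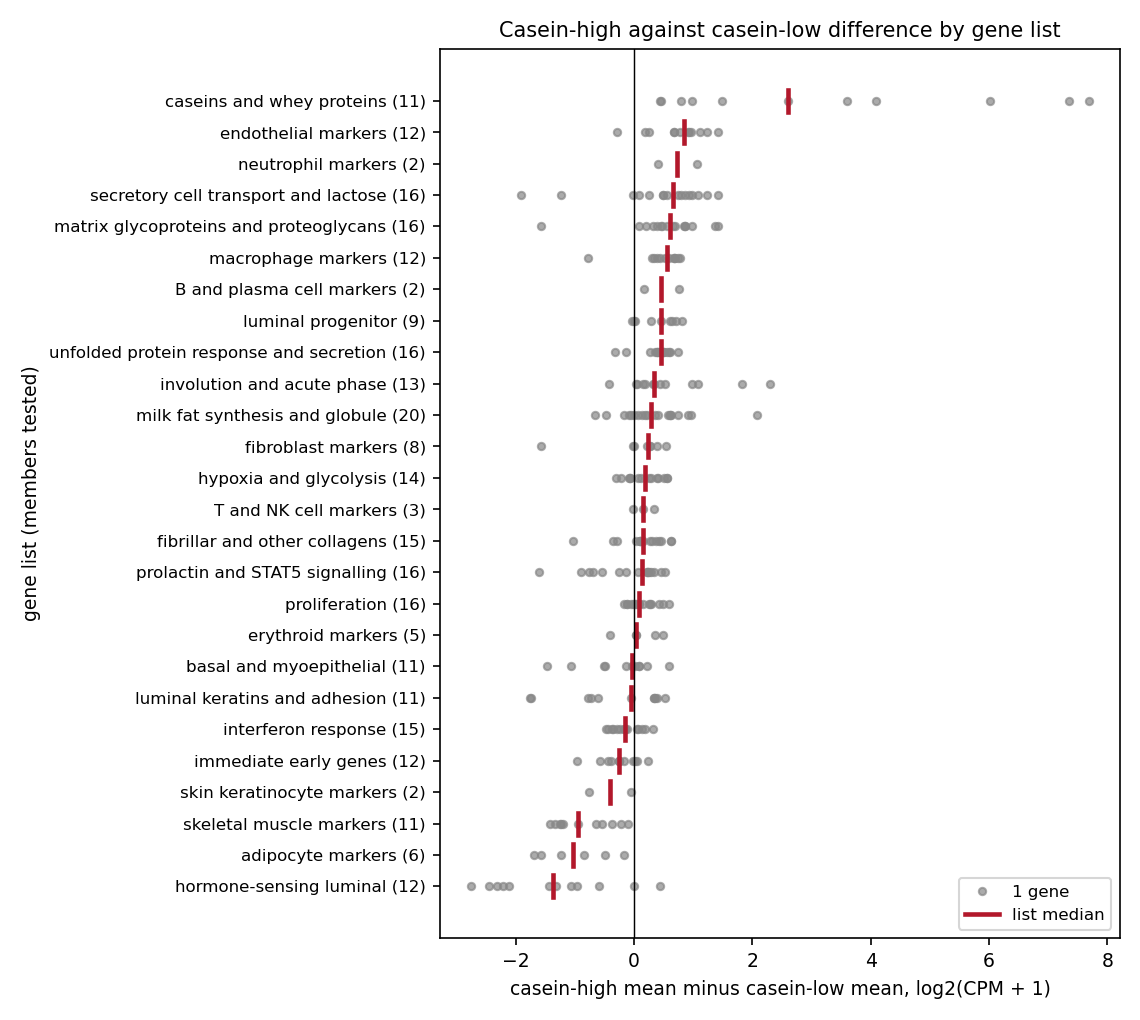
Difference between the casein-high and casein-low means on log2(CPM + 1) for each tested member (grey points) and the median (red line) of each of the 26 gene lists, with the number of members tested in parentheses. The caseins and whey proteins lie farthest to the right with a median of 2.60 and the hormone-sensing luminal genes farthest to the left with -1.37.

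To place the KO libraries, each separating gene other than Csn1s2a was rescaled so that the casein-low mean was 0 and the casein-high mean 1, and the median over genes was taken per library. On the 26 higher genes KO 1 to KO 5 had positions of 0.11, -0.02, 0.12, 0.08 and 0.02. All 5 were thus at the casein-low end with these genes, and 21 to 24 of the 26 genes in each KO library were nearer the casein-low mean. For 18 genes all 5 KO libraries were nearer the low mean, and for 25 genes no KO library reached the casein-high pair. The exception was Rgr, with 9.94 CPM in KO 2 beside 9.77 and 9.85 CPM in WT 1 and WT 4. Over all 14665 genes tested, each in the direction of its own pair means, the matching counts were 2193 and 1624. The pairs of most of those genes overlap, so the shares are not on an equal footing. The placement moves most with WT 3: without it 138 genes formed the higher side, and the positions of KO 1 to KO 5 were 0.43, 0.40, 0.57, 0.47 and 0.49, about midway. Without WT 2 the position of KO 2 was 0.38, without WT 1 that of KO 4 was 0.22, and without WT 4 that of KO 3 was 0.34.

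On the 34 lower genes the KO libraries spread out. The positions were 0.15 for KO 1 and 0.08 for KO 2, near the casein-low mean, and 0.55, 0.53 and 0.60 for KO 3, KO 4 and KO 5, about midway. WT 2 was at -0.23 and WT 3 at 0.23 on this side, so the casein-low tumors themselves lay about as far apart as KO 2 and KO 4. All 5 KO libraries were nearer the casein-low mean for 6 of the 34 genes, and at least 1 KO library reached the casein-high pair for 11. Over all 14665 genes tested, most with overlapping pairs, these counts were 2193 and 13041. Low casein and high levels of the lower genes thus occurred together in WT 2, WT 3, KO 1 and KO 2, while KO 3, KO 4 and KO 5 had low casein with intermediate levels of the lower genes. This split depends on the WT libraries and the gap: without WT 4 the positions on the lower genes were 0.065 for KO 1, -0.066 for KO 4 and 0.16 for KO 5, without WT 1 that of KO 3 was 0.28, and with a 4-fold gap it was 0.12. Without WT 3 those of KO 1, KO 2 and KO 3 were 0.55, 0.43 and 0.84. The WT ends are drawn apart by the choice of genes, which the KO libraries did not enter, so the positions carry no test.

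**Figure D5:**
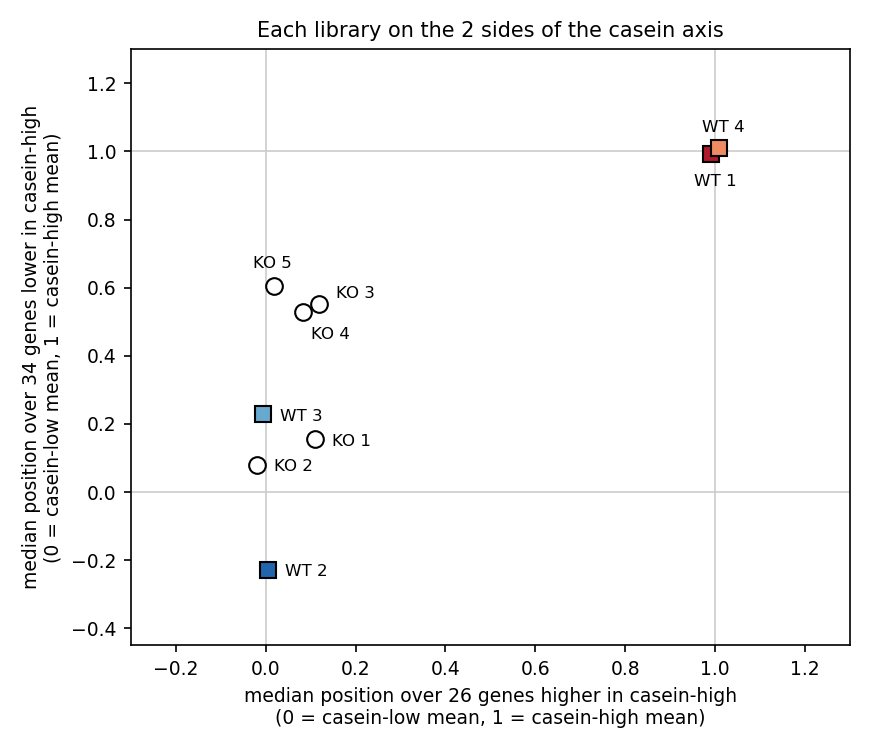
Median position of each library over the 26 higher genes (x axis) and the 34 lower genes (y axis), where 0 is the casein-low mean and 1 the casein-high mean. Squares are WT and open circles KO libraries. All KO libraries lie between -0.02 and 0.12 on the x axis but between 0.08 and 0.60 on the y axis.

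Whether the axis appeared within the KO tumors was tested on libraries that the choice of pairs had not used. Each gene was fitted against log2(CPM + 1) of Csn1s2a over the 5 KO libraries in edgeR, by quasi-likelihood with Benjamini-Hochberg adjusted p-values. None of 13360 genes passed (0%), with 221 at an unadjusted p under 0.05, and DESeq2 called 0 with 156 at an unadjusted p under 0.05. Of the separating genes, 16 on the higher side and 21 on the lower side had enough counts in KO libraries, and 0 of either had an unadjusted p under 0.05. Csn2, Wap and Csn1s2b had too few counts in at least 1 KO library and were not among the 16, so their slopes were not tested. Over the KO libraries Csn2 still averaged 18.1 CPM, more than the 5.82 CPM of Csn1s2a. Csn2 rose in the same order of KO libraries as Csn1s2a, from 0.855 CPM in KO 5 to 46.0 CPM in KO 4. Wap and Csn1s2b did not keep that order. The slope of Csn1s1 was 0.47 ± 0.69 (SE, n = 5) per log2 unit of Csn1s2a, with an edgeR adjusted p of 1. Among these KO tumors Csn1s2a covered 1.88 to 12.1 CPM only, so the range of the WT difference was not sampled.

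In the genotype comparison, edgeR (quasi-likelihood, Benjamini-Hochberg adjusted over 14665 genes) called 5 genes lower in KO (0.0341%) and 8 higher (0.0546%), and none of the 61 separating genes was among them. In edgeR 16 of the higher and 2 of the lower genes had an unadjusted p under 0.05, all of them lower in KO, beside 673 lower and 493 higher among all 14665 genes. DESeq2 called 68 of 14665 genes, and 5 of the separating genes were among them, namely Csn1s1, Csn2, Csn1s2a, Cbr2 and Gldc. On the higher side 26 of the 27 genes had a lower estimate in KO, with a median KO minus WT difference of -1.19, and on the lower side 20 of 34 did, with a median of -0.16. The genes were chosen on WT 1 and WT 4, which are among the 4 WT libraries of this comparison, so these counts and medians describe the choice and nothing is read from them.

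Csn1s2a showed how the division entered the genotype comparison. The KO minus WT difference was -6.25 ± 1.47 (SE, n = 5 KO and 4 WT), with an edgeR adjusted p of 0.345, and without WT 1 and WT 4 it was 0.38. Csn2 went from -6.12 to 0.12 and Csn1s1 from -4.64 to 0.10 in the same step. Lalba, which all 5 KO libraries held below all 4 WT libraries, had a difference of -1.55 with an edgeR adjusted p of 0.256 and was called by DESeq2. Without WT 1 and WT 4 the difference of Lalba was -0.92. Slc14a1 had -2.03 with an edgeR adjusted p of 0.493 over all libraries and -2.78 without WT 1 and WT 4, where it was called. Taking out these libraries fixes the outcome for genes chosen on them, so the values describe which libraries carried each difference.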

How the data were processed

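RNA sequencing of dissociated mammary tumors gave 9 libraries, 4 WT and 5 KO. The submitters' processing notes name GRCm38 as the build, STAR 2.5.4a, Trimmomatic 0.36 and FastQC 0.11.5, without settings. The authors deposited unnormalized counts per gene and library. Entries that name no gene (34.0% to 50.4% of fragments with no annotated feature, 11.0% to 27.1% unmapped) were left out. Of 55401 mouse identifiers, 55141 were matched to GENCODE M21 symbols.

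CPM with TMM factors, the filterByExpr filter (14665 genes) and quasi-likelihood tests came from edgeR 4.0.16 in R 4.3.3, with two-sided p-values, Benjamini-Hochberg adjusted, called under 0.05. WT pairs were compared with a pseudocount of 1 CPM and no test. The KO slope had 3 residual degrees of freedom. Tests were checked on simulated data. A count of 0 allows 3 counts of a library's total, which covers counting error only. Alternatives used DESeq2 1.42.0, other scalings, filters, pseudocounts, covariates and each library left out.

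The pairs, the genes and the 26 gene lists were chosen with earlier results of these data known. Named genes were Csn1s2a, Wap and the caseins and whey list, up to 15 separating genes per direction with the largest gap and a mean log2 level of at least 1 (predicted genes left out), and up to 4 members per list with the largest difference. Outside this rule stand the 8 genes nearest the limit, PyMT, MUC1 and Hspa1b as checks, and those said to be chosen after their values were seen. Also outside it are Gldc, named as called by DESeq2, E030013I19Rik, named for its exon overlap with Itga8, and Areg, named in a figure caption.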

Additional observations from a re-analysis of the deposited data

Results flagged for a closer look

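In 31 of 258 groups (129 named genes, each in WT and in KO) 1 library stood far from the others of its genotype by Dixon's test, where chance alone marks about 1 in 20 groups. That rate is for normally distributed values, while the test was run on CPM without logs, so it need not hold for either genotype. All 31 flagged libraries were the highest of their group. For the WT groups it also fails because most named genes were chosen for wide differences among the same 4 WT libraries. The genes are not independent of each other.

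WT 2 accounted for 12 of these, each as the highest WT library. On the lower side of the casein axis it had 114.75 CPM of Dmbt1, 68.3 of Gipc2, 80.3 of Muc16, 99.1 of Ido1, 143 of Krt4 and 27.2 of Muc13. Among list members it had 196 CPM of Slc5a5, 25.1 of Msx2, 1651 of Krt19, 365 of Col6a3, 96.1 of Fosb and 262 of Fos. Fos and Fosb are immediate early genes, a list of which 2 of 12 tested members had both casein-high libraries below both casein-low libraries.

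WT 1 was the highest WT library for Oxtr at 33.3 CPM, Dnajb9 at 98.1 CPM, Calr at 1418 CPM, Dnajb11 at 121 CPM and Ptprb at 38.6 CPM. Of these, Dnajb9, Calr and Dnajb11 act in protein folding in the endoplasmic reticulum. WT 4 was the highest for Hbb-bt, a globin gene, at 8.28 CPM. The casein-high tumors thus stood apart for different genes.

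Among KO libraries, KO 3 was highest for Csn1s1 at 161 CPM, Csn3 at 7672 CPM, Itga8 at 115 CPM, Oxtr at 51.6 CPM and Car9 at 48.3 CPM. KO 2 was highest for Jak2 at 155 CPM, Greb1 at 28.5 CPM, Itgb3 at 352 CPM and Col6a3 at 123 CPM. KO 5 was highest for Cd5l at 9.23 CPM and S100a8 at 10.4 CPM, and KO 1 for Clip4 at 31.5 CPM and Saa3 at 5.32 CPM. KO 3 thus had the highest KO level of 2 caseins while its Csn1s2a level was 5.42 CPM, the median of the KO libraries. No cause was tested for any of these.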

How the results depend on the processing

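Counts of separating genes depend on the gap, the pseudocount and the filter. A 4-fold gap left 6 higher and 4 lower genes, a pseudocount of 0.25 gave 45 and 54, and a mean count of at least 50 left 15 and 16. CPM without TMM factors gave 55 lower genes. Leaving out 1 WT library gave 92 to 418 higher and 59 to 273 lower genes, since the pair of 1 has no spread.

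Positions of KO libraries on the higher genes with a 4-fold gap were -0.039 for KO 1, 0.021 for KO 4 and -0.19 for KO 5. With a pseudocount of 0.25 they were 0.25 for KO 3 and 0.14 for KO 5, and with a mean count of at least 50 the position of KO 5 was -0.049. On the lower genes, a 4-fold gap gave -0.30 for KO 1, -0.30 for KO 2 and 0.12 for KO 3. Leaving out 1 WT library moved the positions on the higher genes over 0.072 to 0.43 for KO 1, -0.054 to 0.40 for KO 2, 0.017 to 0.57 for KO 3, -0.098 to 0.47 for KO 4 and -0.049 to 0.49 for KO 5. On the lower genes they ran over 0.065 to 0.55, -0.064 to 0.43, 0.28 to 0.84, -0.066 to 0.78 and 0.16 to 0.81 for KO 1 to KO 5. The highest positions came without WT 3 and rest on larger gene sets.

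The slope among KO libraries called 0 genes under every alternative. The genotype comparison called 13 genes, and 68 with DESeq2, 29 with no count filter, 6 with a mean count of at least 50, 8 with Csn1s2a as a covariate, and 6 to 13 with 1 library left out. Of the separating genes it called 0, but 5 with DESeq2, 1 with no count filter (Csn1s2a), and 1 (Slc14a1) both with Csn1s2a as a covariate and without WT 1 and WT 4. KO minus WT differences changed sign for Foxa1 with age as a covariate (0.92) and without WT 2 (0.55, with -0.83 to 0.55 over the libraries left out), and for Csn1s1 with Csn1s2a as a covariate (0.056). Without WT 1 and WT 4 they did so for Csn1s2a (0.38), Csn2 (0.12), Csn1s1 (0.10) and Spp1 (0.12). Apart from what an alternative's own construction shows, the cause was not tested.

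WT and KO samples share the numbers 1 to 4, but nothing in the labels pairs them. Deviations of same-numbered libraries correlated at -0.03, 0.40, 0.12 and 0.40, not all over 0.1, and the fit with the number as a replicate block called 10 genes, with 0 of the separating genes. Genes at a few CPM rest on few counts, which limits the lower side most.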
